A study of Arabidopsis thaliana with 9 samples.

Results

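The genes described here had a higher signal in Arabidopsis thaliana plants exposed to a dichlorobiphenyl and in plants exposed to its hydroxylated form, by a similar amount in both. They are 57 of the 16548 genes that have a probe set of their own. Values are log2 signals, so a difference of 1 is a doubling. The values of 8 of the 9 arrays chose the members. A member had a mean at least 1 above the Control mean in each exposure, exposed means less than 1 apart and both at least 5, and all 5 exposed arrays that were used above the highest Control array, a condition that 10.4% of all genes met. Replicate 1 of the hydroxylated form was not used in these conditions. Genes whose symbol starts with PDF (defensins), JAL (jacalin lectins), UGT (UDP-glycosyltransferases), GSTU (tau glutathione S-transferases), Prx (peroxidases), PYK10 or BGLU21 were left out by name. The germin-like loci at AT5G389 and AT5G391 were left out as well. Genes of the families left out by symbol that carry a locus tag alone were not removed, so the set may hold some.

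Whole plants were grown for 21 days in boxes of agar-set nutrient medium. One group of 3 arrays came from plants given 2,5-dichlorobiphenyl (2,5-DCB), a polychlorinated biphenyl (PCB), at 50 mg per L. The second group of 3 received 4'-OH-2,5-DCB, the same molecule with a hydroxyl group, at 5 mg per L, and the third received acetone, the solvent that both exposures also carried (Control). The 2 doses differ, so values under the 2 compounds are set side by side and say nothing about the hydroxyl group. The design gives 6 boxes of 5 plantlets for each treatment and does not say which plants an array came from, so the spread between arrays may be technical. The plants' accession line is not named in the labels.

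As background, plants handle foreign compounds such as PCBs in steps. They are first oxidised, often to hydroxylated forms, then joined to sugars or glutathione and stored in the vacuole or the cell wall. Chemical stress of this kind is also known to raise genes of pathogen defence, of redox repair and of cell wall remodelling. The tables used here give a symbol to 7 members, and these come first, with what each is known to do. The other 50 have a locus tag alone, and no role is given to them unless they lie in a gene cluster named below.

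The methionine sulfoxide reductase MSRB9, of a family that repairs oxidised methionine in proteins, had log2 signals of 7.25, 8.12 and 8.26 in 2,5-DCB plants, of 7.58, 7.85 and 7.31 in 4'-OH-2,5-DCB plants (replicates 1 to 3) and of 6.02, 5.31 and 5.87 in Control. Every exposed array, replicate 1 of 4'-OH-2,5-DCB among them, lay above every Control array. The means were 4.42-fold higher with 2,5-DCB and 3.60-fold higher with 4'-OH-2,5-DCB than in Control (here and below, 4'-OH-2,5-DCB means and folds are from replicates 2 and 3).

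The cation/H+ exchanger gene CHX16, of a family of membrane antiporters, had 6.71, 7.60 and 7.46 in 2,5-DCB plants, 7.06, 7.10 and 6.90 in 4'-OH-2,5-DCB plants and 5.79, 4.69 and 5.31 in Control. The 4'-OH-2,5-DCB arrays were within 0.2 of each other and inside the range of the 2,5-DCB arrays, whereas the Control arrays spread over 1.1. All exposed arrays lay above all Control arrays. Its means were 3.99-fold and 3.33-fold above Control under 2,5-DCB and 4'-OH-2,5-DCB.

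OSM34 encodes an osmotin, a secreted thaumatin-like protein of the pathogen and osmotic stress responses. Its signals were 9.95, 9.26 and 9.88 in 2,5-DCB plants, 8.60, 9.68 and 8.93 in 4'-OH-2,5-DCB plants and 8.65, 6.93 and 7.47 in Control. The Control arrays differed by 1.72, and Control replicate 1 lay just above replicate 1 of 4'-OH-2,5-DCB, so with that array the groups overlap. The folds over Control were 4.02 with 2,5-DCB and 3.07 with 4'-OH-2,5-DCB.

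SBT3.3, a subtilisin-like serine protease known in Arabidopsis for its part in immune priming, had 6.42, 6.92 and 7.17 in 2,5-DCB plants, 5.76, 6.01 and 6.09 in 4'-OH-2,5-DCB plants and 5.49, 3.91 and 4.99 in Control. Every 2,5-DCB array lay above every 4'-OH-2,5-DCB array, and these lay above Control. The difference from Control was 2.04 with 2,5-DCB and 1.25 with 4'-OH-2,5-DCB. Against Control replicates 1 and 3 alone it was 1.60 and 0.81, since Control replicate 2 was the lowest by more than 1.

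The isocitrate lyase gene ICL, whose enzyme belongs to the glyoxylate cycle that turns stored fat into sugar precursors, had 7.15, 7.71 and 8.90 in 2,5-DCB plants, 6.84, 8.94 and 7.15 in 4'-OH-2,5-DCB plants and 6.27, 6.64 and 6.52 in Control. Here the exposed arrays were the variable side, with 1 high array in each exposed group, and the Control arrays lay within 0.37. The means were 2.71-fold and 2.97-fold above Control under 2,5-DCB and 4'-OH-2,5-DCB.

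BGLU22 is a beta-glucosidase of the root ER body, a compartment of Brassicaceae that stores defence enzymes, and its close relative BGLU21 met the same numeric conditions but was left out by name. BGLU22 had 5.72, 5.87 and 5.87 in 2,5-DCB plants, 6.12, 6.94 and 6.39 in 4'-OH-2,5-DCB plants and 4.99, 4.19 and 4.88 in Control. All 4'-OH-2,5-DCB arrays lay above all 2,5-DCB arrays. The differences from Control were 1.13 with 2,5-DCB and 1.97 with 4'-OH-2,5-DCB for BGLU22, and 1.68 and 2.49 for BGLU21. The paralogs are close, and probes of one may also bind transcripts of the other.

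RTFL7, of the small ROTUNDIFOLIA-like peptides that shape organs when overproduced, had 4.68, 5.64 and 6.02 in 2,5-DCB plants, 5.30, 5.82 and 5.31 in 4'-OH-2,5-DCB plants and 4.21, 4.21 and 4.20 in Control. Its Control arrays spread over only 0.0048, the narrowest range of any member, and the lowest exposed array was 0.47 above them. The folds over Control were 2.36 with 2,5-DCB and 2.57 with 4'-OH-2,5-DCB.

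Members were ranked by the smaller of their 2 differences from Control. AT1G27020 came first, with 8.09, 9.52 and 9.45 in 2,5-DCB plants, 7.44, 8.20 and 8.49 in 4'-OH-2,5-DCB plants and 6.78, 4.71 and 6.72 in Control. It was the single member with both differences at 2 or more, 2.95 with 2,5-DCB (7.72-fold) and 2.28 with 4'-OH-2,5-DCB (4.85-fold). Its Control replicate 2 was the low array, at 4.71 with the next at 6.72, and against replicates 1 and 3 alone the differences were 2.27 and 1.60.

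AT5G23830 had 5.57, 5.57 and 5.60 in 2,5-DCB plants, 5.99, 6.39 and 5.93 in 4'-OH-2,5-DCB plants and 3.47, 3.90 and 3.72 in Control. It had the widest gap of all members between the lowest of the 5 exposed arrays and the highest Control array, 1.67. Its fold over Control was 3.70 with 2,5-DCB and 5.53 with 4'-OH-2,5-DCB, the largest of any member under 4'-OH-2,5-DCB.

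AT3G23550 had 6.72, 6.74 and 7.01 in 2,5-DCB plants, 4.37, 6.46 and 6.45 in 4'-OH-2,5-DCB plants and 5.22, 3.62 and 5.14 in Control. Replicate 1 of 4'-OH-2,5-DCB fell inside the Control range. AT3G46280 had 5.66, 7.07 and 6.58 in 2,5-DCB plants, 7.22, 6.02 and 6.08 in 4'-OH-2,5-DCB plants and 4.41, 4.13 and 4.26 in Control. In this gene replicate 1 of 4'-OH-2,5-DCB was instead the highest array of all, and no exposed array came near Control.

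AT3G16530 had 8.20, 8.84 and 8.67 in 2,5-DCB plants, 7.24, 8.40 and 8.74 in 4'-OH-2,5-DCB plants and 7.75, 5.79 and 6.89 in Control. The differences from Control were 1.76 under each exposure, and the exposed means, 8.57 and 8.57, were the same to this precision. Without Control replicate 2 these differences were 1.25 and 1.25.

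AT4G08780 varied most under 2,5-DCB among the first 15, with 4.42, 5.55 and 6.70, against 5.07, 6.52 and 6.08 under 4'-OH-2,5-DCB and 4.36, 3.87 and 3.48 in Control. Its lowest 2,5-DCB array cleared the highest Control array by only 0.058. Prx37, whose locus tag AT4G08770 precedes it, met the same numeric conditions but was left out by name. The differences of Prx37 from Control were 2.87 with 2,5-DCB and 2.36 with 4'-OH-2,5-DCB. Whether probes of these genes also bind each other's transcripts was not tested. AT2G15220 had 7.19, 6.47 and 7.12 in 2,5-DCB plants, 5.05, 6.49 and 6.12 in 4'-OH-2,5-DCB plants and 4.79, 4.70 and 4.46 in Control. Its Control arrays lay close together, and the gap of 1.32 between them and the 5 exposed arrays used was the second widest. Replicate 1 of 4'-OH-2,5-DCB, which that gap leaves out, lay only 0.25 above the highest Control array.

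AT4G18250 had 7.62, 8.53 and 8.61 in 2,5-DCB plants, 6.31, 7.25 and 7.95 in 4'-OH-2,5-DCB plants and 6.65, 5.26 and 6.05 in Control. Replicate 1 of 4'-OH-2,5-DCB was below Control replicate 1, and the other exposed arrays were clear of Control. AT4G16260 had 8.45, 8.04 and 8.80 in 2,5-DCB plants, 8.69, 8.23 and 8.00 in 4'-OH-2,5-DCB plants and 7.45, 5.81 and 6.50 in Control. All 6 exposed arrays of AT4G16260 were above Control, at folds of 3.58 with 2,5-DCB and 2.88 with 4'-OH-2,5-DCB.

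AT1G30700 had 5.90, 6.0 and 5.98 in 2,5-DCB plants, 5.59, 5.74 and 5.47 in 4'-OH-2,5-DCB plants and 4.18, 4.01 and 4.10 in Control. No group spread over more than 0.3, which made it one of the members measured most tightly, and its differences from Control were 1.86 and 1.51 under 2,5-DCB and 4'-OH-2,5-DCB. AT2G43140 had 5.34, 6.54 and 6.30 in 2,5-DCB plants, 6.14, 6.42 and 6.78 in 4'-OH-2,5-DCB plants and 4.91, 4.52 and 4.33 in Control. Its neighbour AT2G43150 had 10.11, 10.35 and 10.34 in 2,5-DCB plants, 9.42, 10.88 and 10.47 in 4'-OH-2,5-DCB plants and 9.38, 8.32 and 8.75 in Control. Both genes of this pair had the larger difference under 4'-OH-2,5-DCB, 2.01 against 1.47 under 2,5-DCB for AT2G43140 and 1.86 against 1.45 for AT2G43150. With all 3 arrays of 4'-OH-2,5-DCB the order turned for AT2G43150, at 1.44 against 1.45.

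**Figure D1:**
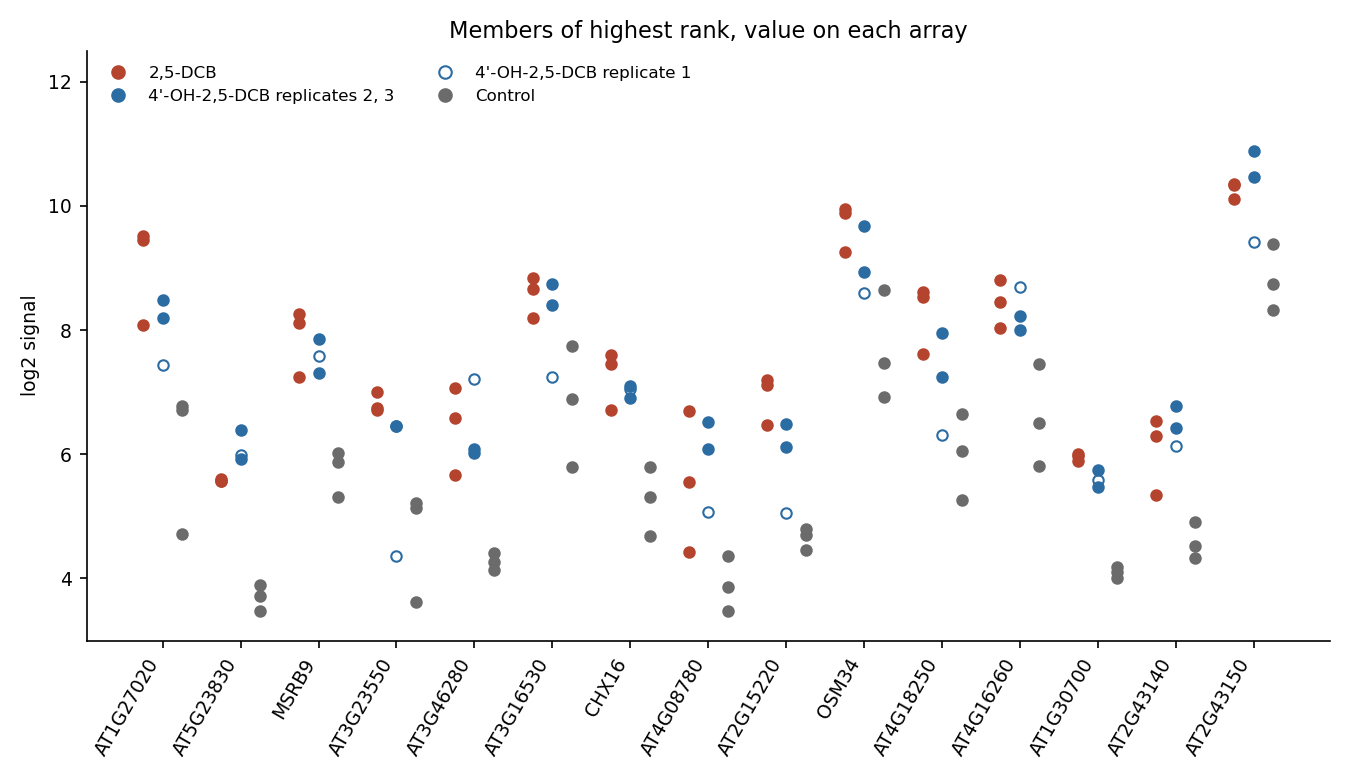
Log2 signal (y axis) of the 15 members of highest rank (x axis) on each array, with 2,5-DCB, 4'-OH-2,5-DCB and Control side by side. Filled points are the arrays that chose the members and hollow points are replicate 1 of 4'-OH-2,5-DCB, which lies inside the Control range for AT3G23550 and above all other arrays for AT3G46280.

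Over all 57 members the difference from Control ran from 1.00 to 2.95 under 2,5-DCB, with a median of 1.47 (2.77-fold), and from 1.01 to 2.47 under 4'-OH-2,5-DCB, with a median of 1.40 (2.64-fold). Over all 16548 genes the medians were 0.038 and 0.019. Both differences reached 1.5 in 13 members. These values are what the members were chosen by, so they describe the set and test nothing. Each pair of differences also shares the same Control arrays.

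The members' Control means ran from 3.69 to 9.16 with a median of 5.13. In 21 of 57 members (36.8%) the Control mean lay under the median of the Control arrays (4.73 on average). It lay under their 25th percentile (2.88 on average) in 0 of 57, which the minimum exposed mean of 5 all but fixed. Exposed means were both under 7 in 34 members. Both exposed means were at least 8 in 9 members. Of these, AT1G15125 averaged 10.83 under 2,5-DCB, 10.34 under 4'-OH-2,5-DCB and 9.16 in Control. AT1G65845 averaged 9.01 under 2,5-DCB, 8.56 under 4'-OH-2,5-DCB and 7.54 in Control.

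In 36 members the 2,5-DCB mean was above the 4'-OH-2,5-DCB mean and in 21 it was below, and in 40 the exposed means lay less than 0.5 apart. Both 4'-OH-2,5-DCB arrays lay above all 2,5-DCB arrays in 7 members, which is 12.3% of them against 14.9% of all genes, and the opposite held in 8 members, 14.0% against 15.8%. Both shares are near those of all genes. The 7 were AT5G23830, AT2G43150, AT4G21870, AT4G12090, AT3G20370, BGLU22 and AT3G23470, and their 4'-OH-2,5-DCB minus 2,5-DCB differences ran from 0.33 for AT4G12090 to 0.84 for BGLU22. The 8 were AT3G23550, AT1G30700, AT1G65690, SBT3.3, AT2G43620, AT1G51790, AT1G65845 and AT5G09290, from -0.35 for AT1G30700 to -0.91 for AT1G65690. With replicate 1 of 4'-OH-2,5-DCB included the order of the exposed means turned in 7 of the 57, and the 2,5-DCB mean was the higher in 41, the 4'-OH-2,5-DCB mean in 16. Those that turned were AT3G46280, AT2G43150, ICL, AT3G22240, AT1G53542, AT4G21140 and AT5G12880. The rule itself holds these differences under 1.

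**Figure D2:**
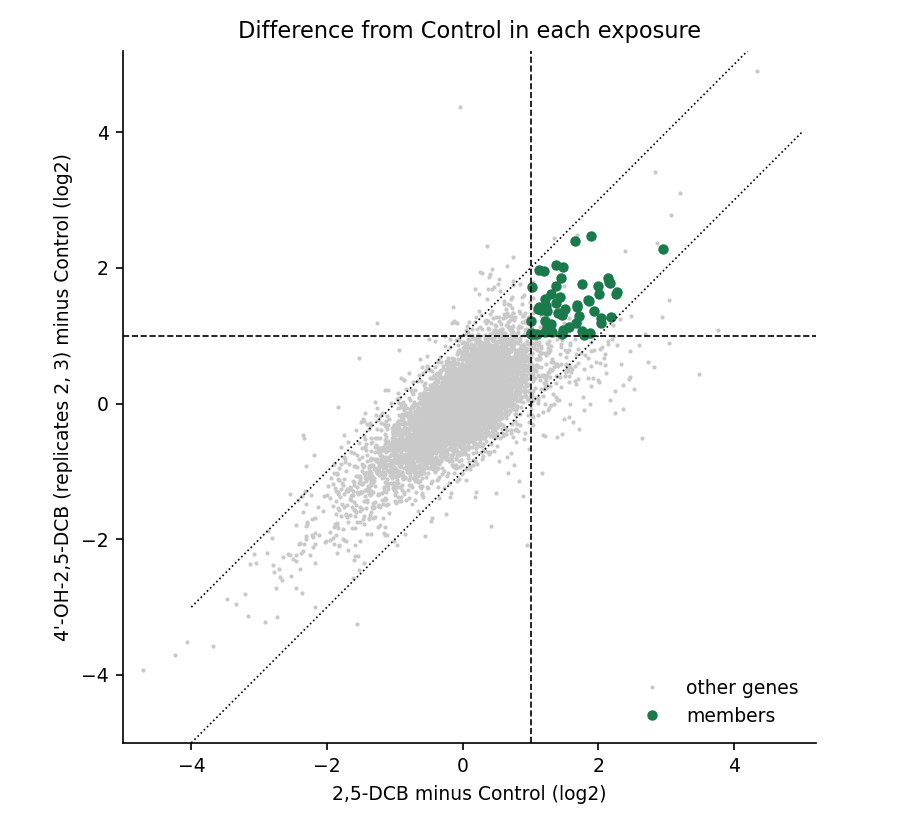
Difference from Control on the log2 scale under 4'-OH-2,5-DCB (y axis, replicates 2 and 3) against that under 2,5-DCB (x axis), 1 point per gene. Dashed lines mark the minimum of 1 and dotted lines an equal difference plus or minus 1; the 57 members (green) fill the corner that the rule allows, and the gray points there are genes left out by name, by level or by a single array.

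Among members of rank 16 to 30, AT2G36970, AT1G60750, AT2G21850, AT4G35380, AT5G40690 and AT4G39270 had Control means of 4.0 to 5.45 and differences of 1.40 to 1.72 under 2,5-DCB and of 1.29 to 1.45 under 4'-OH-2,5-DCB. AT4G35380 was measured tightly, with 5.66, 5.55 and 5.81 in 2,5-DCB plants, 5.18, 5.78 and 5.44 in 4'-OH-2,5-DCB plants and 4.42, 4.06 and 4.32 in Control. AT2G05510 had 8.14, 8.34 and 8.68 in 2,5-DCB plants, 8.15, 8.15 and 7.49 in 4'-OH-2,5-DCB plants and 6.61, 6.34 and 6.43 in Control, so that all 6 exposed arrays stood clear of Control. AT1G65690 had 6.80, 7.36 and 7.81 in 2,5-DCB plants, 4.39, 6.59 and 6.24 in 4'-OH-2,5-DCB plants and 6.05, 4.41 and 4.98 in Control. Its replicate 1 under 4'-OH-2,5-DCB was the lowest of all 9 arrays, 1.66 below the highest Control array.

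The members of lower rank had a smaller difference between 1.00 and 1.24. AT5G20400, AT1G53542, AT1G62790, AT2G41380 and AT5G12420 had narrow Control ranges, 0.13 to 0.38, and all 6 exposed arrays lay above them. AT2G41380, for example, had 7.26, 7.37 and 7.31 in 2,5-DCB plants, 7.30, 6.98 and 7.52 in 4'-OH-2,5-DCB plants and 6.31, 6.18 and 6.18 in Control. AT5G16170, AT3G26470, AT4G30170, AT3G60450, AT5G44820, AT3G19390, AT5G41761 and AT5G12880 had differences of 1.00 to 1.57 under 2,5-DCB and of 1.02 to 1.40 under 4'-OH-2,5-DCB. AT4G21140 had 5.81, 6.20 and 5.78 in 2,5-DCB plants, 5.12, 5.90 and 5.99 in 4'-OH-2,5-DCB plants and 4.41, 4.82 and 5.54 in Control, and Control replicate 3 came within 0.24 of the exposed arrays. AT3G28540 was the loosest, with 4.49, 6.14 and 6.79 in 2,5-DCB plants, 3.61, 5.19 and 5.03 in 4'-OH-2,5-DCB plants and 4.47, 3.44 and 4.23 in Control. Its lowest 2,5-DCB array passed the highest Control array by 0.020.

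The members also shared an order of arrays inside each group. The rule did not ask for an order, but it used these same values, so the shares below describe the set and test nothing. Control replicate 1 was the highest Control array in 42 of 57 members (73.7%), against 29.6% of all genes, and Control replicate 2 was the lowest in 37 (64.9%), against 25.3%. Among the 2,5-DCB arrays, replicate 1 was the lowest in 43 members (75.4%), against 37.0% of all genes. Of the 2 arrays of 4'-OH-2,5-DCB used, replicate 2 was the higher in 39 (68.4%), against 51.7%. The Control arrays thus differed more for members than for other genes, with a median range of 0.65 against 0.30 over all genes. The 2,5-DCB arrays did as well, with 0.60 against 0.30.

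In 6 members Control replicate 2 lay more than 1 below both other Control arrays, and this held for 0.242% of all genes. A low Control array lowers the Control mean that the rule uses, so these shares, too, are only a description. They are AT1G27020, AT3G23550, AT3G16530, AT3G22235, SBT3.3 and AT1G15125. For AT1G15125, with 9.91, 7.88 and 9.68 in Control, the differences against Control replicates 1 and 3 alone were 1.04 with 2,5-DCB and 0.55 with 4'-OH-2,5-DCB, in place of 1.68 and 1.18. For AT3G22235 they were 0.98 and 0.81, in place of 1.47 and 1.30. Without Control replicate 2, 41 of the 57 members kept both differences at 1 or more. Without Control replicate 1 this number was 53, and without Control replicate 3 it was 51. With whole plants, more cells of a kind and more RNA in each cell cannot be told apart.

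**Figure D3:**
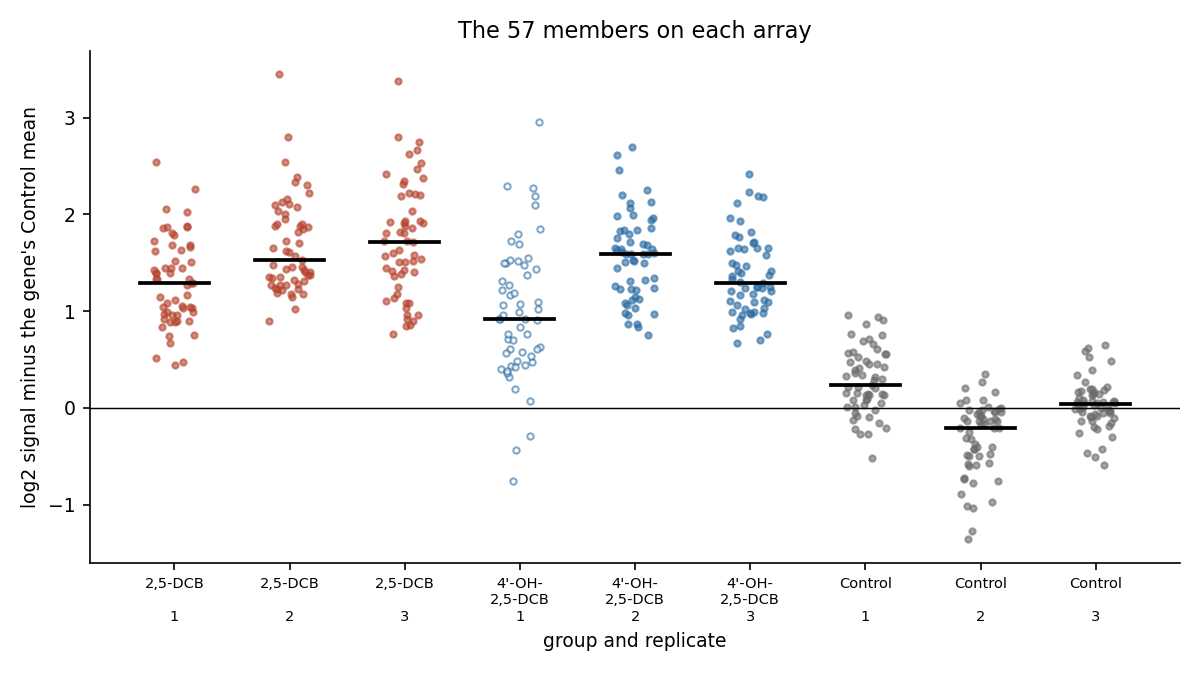
Log2 signal of each of the 57 members minus that gene's Control mean (y axis) on each of the 9 arrays (x axis), 1 point per member, with the median as a bar. The medians run from 1.29 to 1.71 on the 2,5-DCB arrays and are 0.92, 1.59 and 1.29 on replicates 1 to 3 of 4'-OH-2,5-DCB (replicate 1 hollow), against 0.23, -0.20 and 0.043 on Control replicates 1 to 3.

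Replicate 1 of 4'-OH-2,5-DCB is the single array that the conditions of the rule did not use. It entered only the choice of the brightest probe set for the 148 genes that have more than 1. Of the members, 0 are among these genes. This array stands apart from the other 8. Its SD over genes was 1.68, against 2.13 to 2.20, its 25th percentile was 3.71, against 2.80 to 3.01, and its highest correlation with another array was 0.927, against 0.987 or more for the rest (Pearson r across genes, which are not independent). On this array 46 of 57 members (80.7%) lay above the highest Control array, against 49.0% of all genes. Among the 10088 genes whose Control mean lies in the members' range, the share was 29.9%. That range runs from 3.69 to 9.16 while the median member lies at 5.13, so this share is not matched to the members' levels. The median member was 0.92 above its Control mean there, against 0.17 for the median gene. The Control arrays in this comparison did help to choose the members, and with 1 array there is no test.

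The 11 members that did not clear Control on that array were AT3G23550, AT3G16530, OSM34, AT4G18250, AT3G22235, AT4G39270, AT1G65690, AT1G15125, AT3G26470, AT3G28540 and AT4G21140. Their distance from the highest Control array ran from -0.027 for AT3G26470 to -1.66 for AT1G65690. At the other end AT3G46280 lay 2.81 above the highest Control array, AT5G23830 2.09 and AT3G23470 1.79. In 38 members this array was below both other 4'-OH-2,5-DCB arrays, and in 7 it was above both.

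**Figure D4:**
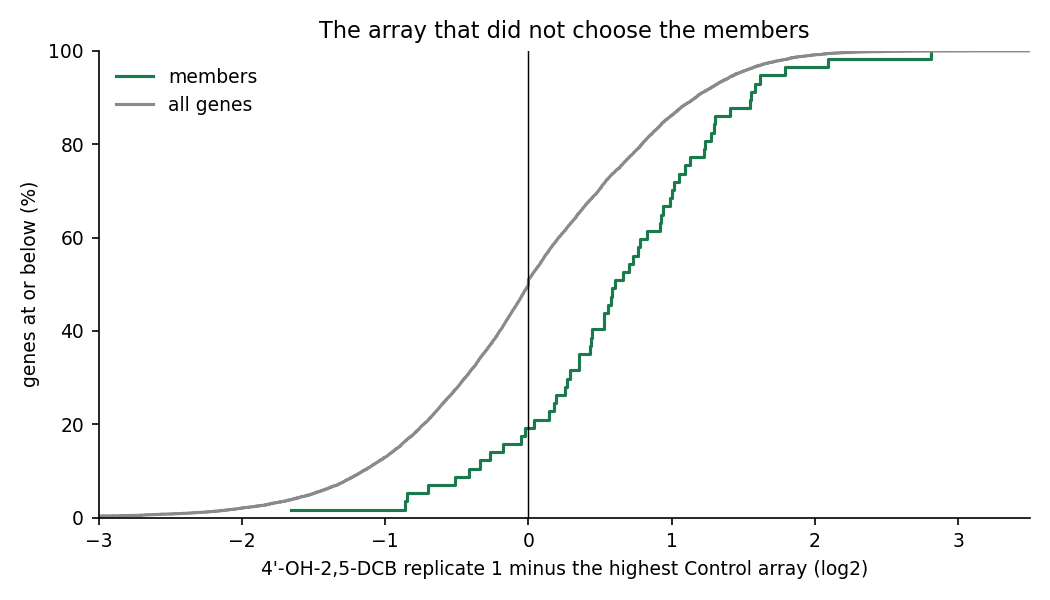
Share of genes (y axis, %) at or below a given distance between replicate 1 of 4'-OH-2,5-DCB and the highest Control array (x axis, log2), for the 57 members (green) and all 16548 genes (gray). The members' curve lies to the right: 46 of 57 are above 0, against 49.0% of all genes.

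A limma fit over all 16722 probe sets and 9 arrays called 42 of the 57 members higher under 2,5-DCB and 31 higher under 4'-OH-2,5-DCB, at an adjusted p under 0.05. The same calls were made for 1.82% and 1.00% of all probe sets. The members were picked from these same contrasts, so nothing is read from their counts. No member was called lower, but the rule asks for exposed means at least 1 above Control, so the choice all but fixed this. The shares of all probe sets called lower, 2.82% with 2,5-DCB and 1.90% with 4'-OH-2,5-DCB, are therefore no comparison for the members. Of the members, 30 were called in both, 12 for 2,5-DCB alone, 1 for 4'-OH-2,5-DCB alone (AT3G23470) and 14 in neither. Those in neither included ICL and AT4G08780, with a wide spread under 2,5-DCB, and AT3G23550, AT3G16530 and AT1G15125, with a wide one in Control. Without replicate 1 of 4'-OH-2,5-DCB, 52 were called with 2,5-DCB and 41 with 4'-OH-2,5-DCB, with 5.92% and 3.41% of all probe sets called. Leaving out 1 of the other arrays also moved the calls, over all probe sets as well as among members. For 2,5-DCB the members called were 13 without Control replicate 2 (0.311% of all probe sets called), 18 without Control replicate 3 (0.574%), 12 without 2,5-DCB replicate 2 (0.359%) and 15 without 2,5-DCB replicate 3 (0.383%). For 4'-OH-2,5-DCB they were 20, 3 and 7 without Control replicates 1, 2 and 3 (0.353%, 0.132% and 0.215%), 18 and 16 without 2,5-DCB replicates 2 and 3 (0.460% and 0.472%), and 14 and 20 without 4'-OH-2,5-DCB replicates 2 and 3 (0.437% and 1.12%).

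The fit of 4'-OH-2,5-DCB against 2,5-DCB called 0 members, with 0.00% of all probe sets called. At an unadjusted p under 0.05 it held 3 members higher (5.26%) and 8 lower (14.0%) under 4'-OH-2,5-DCB, against 4.83% and 5.08% of all probe sets. The calls of this contrast changed between settings. Without replicate 1 of 4'-OH-2,5-DCB the calls were 30 probe sets higher and 33 lower, 0 of them members. With weights per array they were 166 higher and 183 lower, and 2 members were lower under 4'-OH-2,5-DCB, AT2G43620 (-0.91, SE 0.17, limma adjusted p 0.0319) and AT1G51790 (-0.89, SE 0.19, limma adjusted p 0.0437). The rule bounds this difference too, so these calls are a description.

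Position was not used to choose members, apart from the loci left out. Of the 57, 11 had another member at most 5 protein-coding genes away in the RefSeq order (19.3%), whereas 318 of the 16477 other measured genes (1.93%) had a member that near. The members fell on all 5 chromosomes, with 15 of 4280 measured genes on chromosome 1, 9 of 2539 on chromosome 2, 13 of 3387 on chromosome 3, 11 of 2444 on chromosome 4 and 9 of 3815 on chromosome 5. Close copies on a chromosome can share probes, so neighbours may not be independent measurements. The members' median gene length of 1711 bp compares with 1905 bp for all genes.

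The chain with 3 members lies in the AT1G518 cluster of leucine-rich repeat receptor kinase genes on chromosome 1, a kind of receptor that senses signals at the cell surface. AT1G51830 had 6.75, 7.49 and 7.23 in 2,5-DCB plants, 7.30, 7.77 and 7.26 in 4'-OH-2,5-DCB plants and 6.0, 5.87 and 5.49 in Control. AT1G51840 had 7.18, 7.59 and 7.52 in 2,5-DCB plants, 7.67, 8.00 and 7.50 in 4'-OH-2,5-DCB plants and 6.74, 5.55 and 6.12 in Control. Both stood above Control on all 6 exposed arrays. AT1G51850 had 5.72, 6.40 and 5.98 in 2,5-DCB plants, 6.75, 5.90 and 5.38 in 4'-OH-2,5-DCB plants and 4.40, 4.13 and 5.14 in Control, where Control replicate 3 was close to the exposed arrays. A little apart on the same chromosome, AT1G51790 was also a member, with differences of 1.88 with 2,5-DCB and 1.04 with 4'-OH-2,5-DCB.

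Not all genes of that stretch behaved alike. AT1G51860 differed from Control by 2.94 with 2,5-DCB and 1.27 with 4'-OH-2,5-DCB and AT1G51890 by 2.46 and 0.77, and neither is a member, the first because its exposed means lie too far apart and its arrays overlap. AT1G51805 had -0.79 and -0.77, and AT1G51870 had -0.034 and -0.12. Of the 8 other measured genes in this stretch, 3 were above Control in both exposures.

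The chitinase cluster around CHI on chromosome 2 held AT2G43590 and AT2G43620. Chitinases cut the chitin of fungal cell walls. AT2G43590 had 8.18, 8.11 and 7.66 in 2,5-DCB plants, 7.94, 7.99 and 8.41 in 4'-OH-2,5-DCB plants and 7.17, 6.18 and 6.92 in Control. AT2G43620 had 6.60, 7.03 and 6.66 in 2,5-DCB plants, 5.49, 5.69 and 6.14 in 4'-OH-2,5-DCB plants and 4.71, 4.59 and 4.89 in Control. Both were above Control on every exposed array, and AT2G43620 had the larger difference under 2,5-DCB (2.03 against 1.19 under 4'-OH-2,5-DCB). CHI itself had 3.77 with 2,5-DCB and 1.08 with 4'-OH-2,5-DCB, and AT2G43610 had 0.75 and 1.81, so that these genes miss the rule on opposite sides. Of the 10 other measured genes here, 8 were above Control in both exposures, with medians of 0.30 and 0.51.

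MSRB9 on chromosome 4 lay 3 genes from AT4G21870, which had 7.36, 7.81 and 6.68 in 2,5-DCB plants, 7.64, 7.88 and 8.03 in 4'-OH-2,5-DCB plants and 6.06, 5.90 and 5.78 in Control. Its Control arrays were tight and all exposed arrays were above them. Next to MSRB9 on the other side, its paralog MSRB8 had a difference of 2.02 under 2,5-DCB and of 0.59 under 4'-OH-2,5-DCB, and AT4G21865, which lies between the members, had -0.052 and 0.026.

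On chromosome 3, AT3G22235 had 7.84, 8.52 and 8.43 in 2,5-DCB plants, 6.86, 7.77 and 8.42 in 4'-OH-2,5-DCB plants and 7.56, 5.82 and 7.01 in Control. AT3G22240, next to it, had 9.10, 9.15 and 9.19 in 2,5-DCB plants, 8.35, 9.42 and 9.10 in 4'-OH-2,5-DCB plants and 7.99, 7.60 and 7.72 in Control. AT3G22240 was clear of Control on all 6 exposed arrays, while AT3G22235 overlapped with Control on replicate 1 of 4'-OH-2,5-DCB. Their measured neighbours stayed nearer to Control, from -0.66 for AT3G22275 to 0.35 for AT3G22230 under 2,5-DCB. Under 4'-OH-2,5-DCB these 2 genes were again the ends of the range, at -0.82 and 0.64. Around AT2G43140 and AT2G43150, too, 0 of 6 other measured genes reached a difference of 1 in both exposures.

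**Figure D5:**
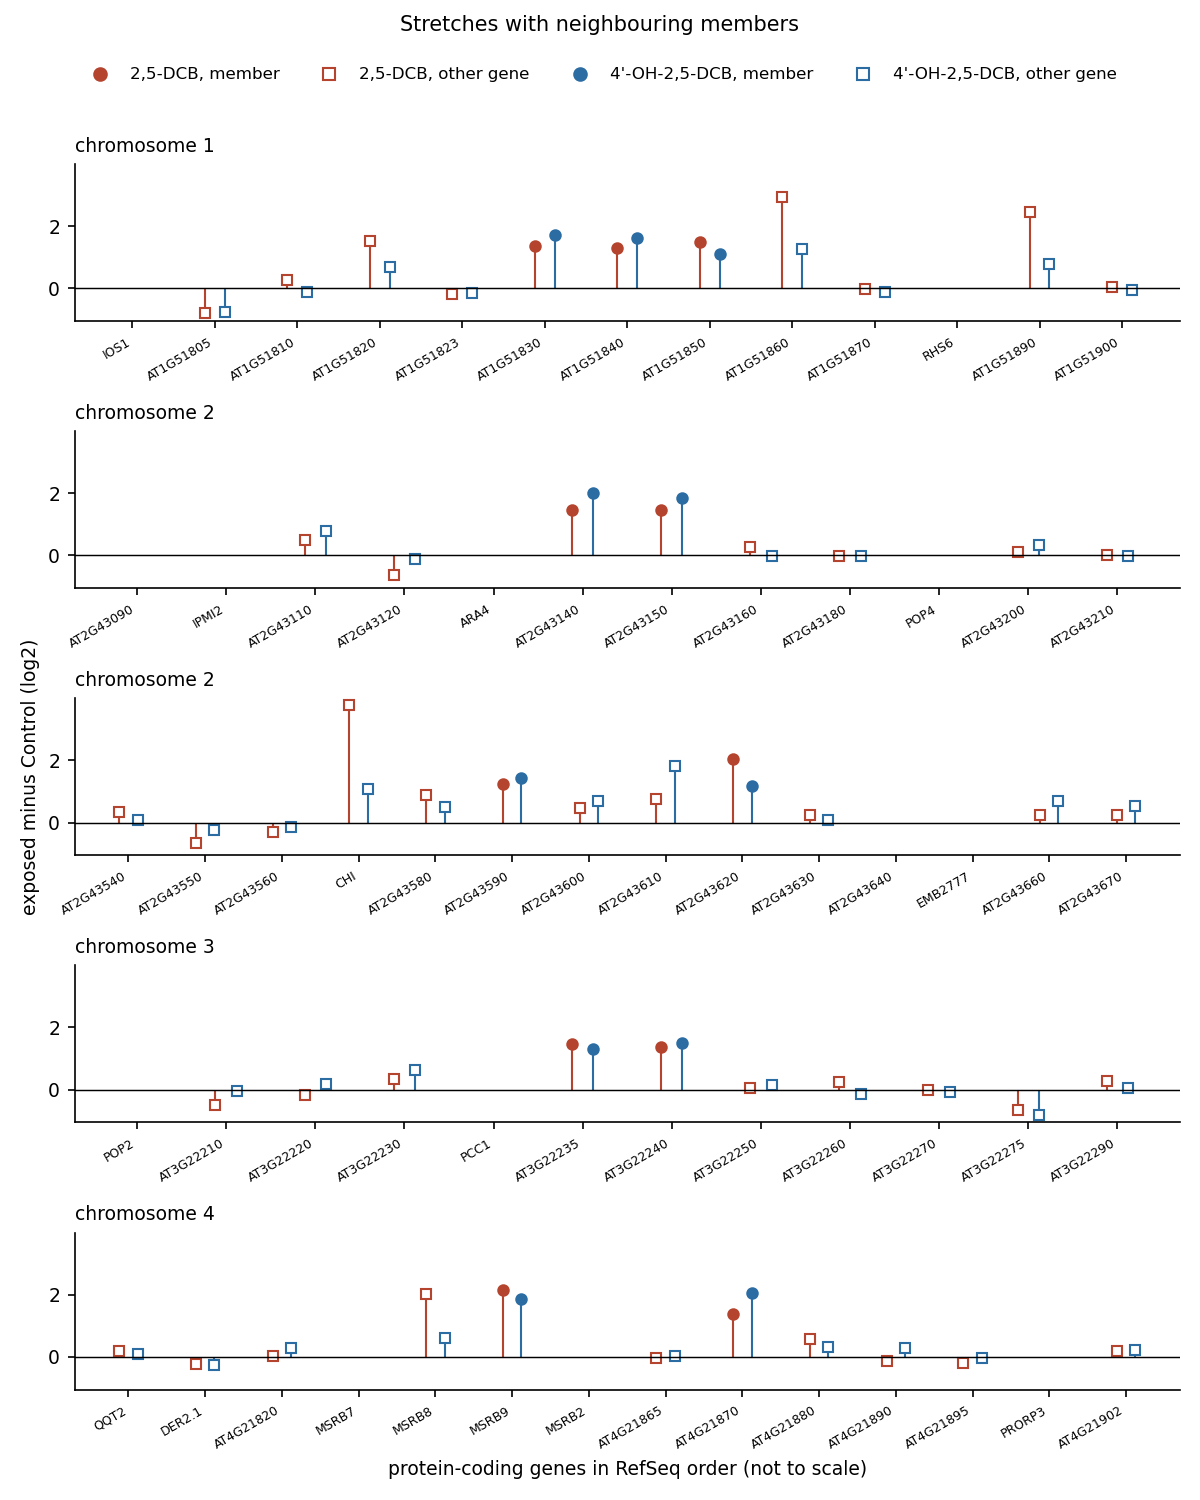
Difference from Control (y axis, log2) under 2,5-DCB (red) and 4'-OH-2,5-DCB (blue, replicates 2 and 3) for each measured gene in the 5 stretches that hold neighbouring members (x axis, RefSeq order of protein-coding genes, not to scale). Circles are members and open squares other genes, and a name with no point was not measured; CHI (3.77) and AT1G51860 (2.94) exceed the members near them under 2,5-DCB.

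Pathway lists were drawn up for salicylic acid and jasmonate signalling, pathogenesis-related proteins, lignin precursors, detoxification, protein folding in the ER, indole glucosinolates, sulfur and phosphate shortage and senescence. Of their 161 genes only 19 have a probe set of their own here, so most of these pathways are not covered, and 0 of the 19 are members. Members make up 0.344% of all genes, so nothing is read from that 0. In limma 3 of the 19 were higher with 2,5-DCB and 0 with 4'-OH-2,5-DCB, with 0 lower in either, where 1.82% and 1.00% of all probe sets were higher and 2.82% and 1.90% lower. At an unadjusted p under 0.05, 4 were higher (21.1%) and 3 lower (15.8%) under 4'-OH-2,5-DCB, against 8.52% and 8.75% of all probe sets. Under 2,5-DCB 0 were lower at that threshold, against 8.23%. The 3 called higher with 2,5-DCB were CHI (3.77, SE 0.70, limma adjusted p 0.0191), the senescence and defence regulator WRKY6 (1.90, SE 0.22, adjusted p 0.00303) and AT2G04050 (1.00, SE 0.18, adjusted p 0.0180). WRKY6 had 0.77 under 4'-OH-2,5-DCB, below the minimum of 1. The median over the 19 was 0.39 with 2,5-DCB and 0.21 with 4'-OH-2,5-DCB, against 0.038 and 0.019 over all genes.

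Marker genes of plant parts were likewise sparse. The 1 photosynthetic leaf marker measured, RCA (Rubisco activase), averaged 11.18 under 2,5-DCB, 11.56 under 4'-OH-2,5-DCB and 11.57 in Control. Its 2,5-DCB arrays, at 10.95 to 11.32, all lay below the Control arrays, at 11.54 to 11.59. Replicate 1 of 4'-OH-2,5-DCB was also below them, at 11.06. The difference of -0.39 under 2,5-DCB was not called (limma adjusted p 0.347). The guard cell marker FMA averaged 5.96 under 2,5-DCB, 5.69 under 4'-OH-2,5-DCB and 5.87 in Control. Of 12 root markers 2 were measured, PYK10 and EXPA7. Their mean signal ran from 7.32 to 7.66 on the 2,5-DCB arrays and from 7.41 to 7.89 on the 4'-OH-2,5-DCB arrays (7.77 on replicate 1), against 6.74 to 6.94 on the Control arrays. Both root markers thus had higher means in the exposed groups, PYK10 by 0.88 and 1.30 and EXPA7 by 0.43 and 0.28 under 2,5-DCB and 4'-OH-2,5-DCB. EXPA7 overlapped with Control, with the lowest of the 5 exposed arrays minus the highest Control array at -0.10. PYK10 is among the names that the rule left out. In limma PYK10 was called under 4'-OH-2,5-DCB (adjusted p 0.0438), and not under 2,5-DCB (adjusted p 0.0770), and EXPA7 under neither. Their part in the members' values was not tested. The seed marker PAP85 averaged 5.48 under 2,5-DCB, 3.39 under 4'-OH-2,5-DCB and 3.77 in Control (called higher under 2,5-DCB, limma adjusted p 0.0199), and the 2 flower and pollen markers measured had mean signals of 3.04 to 3.27, 2.89 to 3.07 and 3.12 to 3.71 on the arrays of those groups (replicate 1 of 4'-OH-2,5-DCB not counted).

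Genes just outside the set lay close to members at its thresholds. AT5G12880, AT5G12420 and AT4G21140 were nearest inside the minimum difference, at 1.00, and AT1G66920, AT3G08980 and AT3G15356 nearest outside, at 0.996, 0.980 and 0.978. The exposed means of AT1G65690, AT2G43620 and BGLU22 lay 0.91, 0.85 and 0.84 apart, and those of AT1G65500, AT5G26260 and AT3G51330, outside, 1.07, 1.1 and 1.19. The lower exposed mean was 5.11 for AT3G28540, 5.16 for AT3G60450 and 5.22 for AT1G51790, against 4.95, 4.83 and 4.79 for AT2G32650, AT1G33750 and AT5G38340. AT2G25510, AT4G14060 and AT5G44568 failed on single arrays alone, with the lowest exposed array minus the highest Control array at -0.17, -0.38 and -0.83. A further 11 genes met all numeric conditions and were left out by name or locus, among them the defensin PDF1.2 and the glycosyltransferases UGT72E2 and UGT73B4.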

How the data were processed

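RNA of whole plants was hybridised to Affymetrix whole-transcript arrays, 3 per group. The authors deposited log2 signals per probe set, and per the submitters' processing notes the tool was Affymetrix Expression Console. Its version, summarization and background settings: not given in the sources used here. No further normalization was applied. Of 38408 probe sets, 16722 are paired with exactly 1 gene in the platform annotation and stand for 16548 genes (the brightest was taken where a gene has several); 16714 were matched to RefSeq TAIR10.1 by gene ID, locus tag or symbol. The genome build of the probe sets is not given, so no coordinates are printed. Sequences of promoters and proteins were not used here, so motifs were not searched.

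The members and gene lists were chosen with earlier results of these data known. Named in full are the 15 members of highest rank by the smaller difference, members with a symbol and those near another member. AT4G35380, AT2G05510, AT1G65690, AT2G41380, AT4G21140 and AT3G28540 are also shown by array, as examples chosen after their values were seen; the rest are given by means, ranges or counts. A planned grouping by family description was not possible, as the RefSeq table used holds none. The fit was limma 3.58.1 (R 4.3.3; lmFit, eBayes, 1 term per group, all 9 arrays, Benjamini-Hochberg adjustment over all 16722 probe sets), tested on simulated data. The number of arrays limits the precision. The labels' replicate numbers were not taken to pair the samples. Alternatives were other normalizations, filters, weights, a replicate block and leaving out arrays. There were 0 further sample columns.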

Additional observations from a re-analysis of the deposited data

Results flagged for a closer look

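Signal of the same kind appeared in probe sets that entered no comparison above. Among the 21686 probe sets not paired with exactly 1 gene, 269 met every numeric condition of the rule. Many of these repeat the same values, and they amount to 150 distinct rows of values among 16183. The genes behind them are not named here.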

How the results depend on the processing

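The number of members, 57, was 48 with all 3 arrays of 4'-OH-2,5-DCB (41 of the 57 among them), 42 after quantile normalization (all among the 57) and 55 after centring of medians. It was 13 with a minimum difference of 1.5 and 36 with a minimum level of 6, both fewer by construction. With 1 array left out it ran from 43 (without Control replicate 2) to 84 (without Control replicate 1). Members above Control on replicate 1 of 4'-OH-2,5-DCB were 48 after quantile normalization and 44 after centring of medians, with 41.0% and 41.4% of all genes above.

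Members called under 2,5-DCB (42) were 24 with the replicate block and ran from 12 to 52 with 1 array left out. Members called under 4'-OH-2,5-DCB (31) were 51 with array weights, 6 with only the groups compared and 14 with the replicate block, and ran from 3 to 41 with 1 array left out. The 305 probe sets higher under 2,5-DCB were 1151, 772 and 132 with array weights, with only the groups compared and with the replicate block, and 52 to 990 with 1 array left out. The 168 higher under 4'-OH-2,5-DCB were 923, 17 and 73 in the same order, and 22 to 571. The cause of these shifts was not tested. The replicate numbers were not taken to pair the samples. Same-numbered arrays of 2,5-DCB and Control deviated with r of -0.13, 0.016 and -0.016. For 4'-OH-2,5-DCB and Control r was -0.19, -0.25 and 0.067, and for the 2 exposures 0.064, -0.035 and 0.074. With 3 arrays per group these values cannot settle whether samples were paired. Of 180 recomputed differences of the 15 members of highest rank, 0 turned and 7 moved by over 1 SD of the Control arrays. Leaving out 1 of 3 Control arrays cannot shift their mean by 1 SD, so those recomputations could not count as moved. Differences under 2,5-DCB cannot change when replicate 1 of 4'-OH-2,5-DCB is added. The count of 7 is therefore no measure of stability. The choice of these 15 members was made after seeing the data, and the differences ran from 1.1 to 3.30. Promoter motifs, planned, were not run.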
